A study of Homo sapiens with 8 samples.

Results

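The comparison covers the T387A and the wild-type line late in an interferon response, after 8 or 24 h with interferon-beta (IFN-β). It uses 4 of the 8 arrays of the series, chosen by their titles: 2 of U6A cells expressing T387A STAT2 and 2 of U6A cells expressing wild-type STAT2, paired by time. U6A cells come from a human fibrosarcoma and make no STAT2 of their own, so in both lines the only STAT2 is the one put back. The cells were grown in DMEM with fetal bovine serum and received IFN-β at 100 IU/ml, and the arrays at 0 and 4 h of the same lines are given beside the late ones where they bear on a result. Total RNA was labelled with biotin and read on Illumina bead arrays. Each line and time has 1 array, and the sources used here do not say what drives the STAT2 gene that was put back, how much of it is made, or whether a line is 1 clone. STAT2 itself was not analysed here, and the labels of the lines have no check from the RNA of the gene itself.

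Type I interferons bind a receptor at the cell surface that activates the JAK kinases, and these phosphorylate STAT2. STAT2 acts with IRF9 in a transcription factor complex that binds the interferon-stimulated response element in the promoters of antiviral, antigen-presenting and inflammatory genes. The T387A substitution replaces a threonine of STAT2, an amino acid that can be phosphorylated, with an alanine, which cannot. The question posed by the late arrays is which genes differ between the lines once the response is established, and which differences are present at both times or at only 1 of them.

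A level is the deposited intensity of 1 probe for each of 20045 genes, and values under a floor of 10.7 were raised to it before log2 was taken. The deposited arrays have nearly the same distribution, with summed intensities of 10093323 to 10094142 and 40.2% to 40.3% of probes above the floor. Across the 5130 genes over 100 on all 8 arrays, the lines correlated at r = 0.992 at 8 h and 0.988 at 24 h on the log2 scale. Of 8 mesenchymal markers, 5 were above 100 on a late array, among them the intermediate filament gene VIM, while THY1 was at the floor on all 4. None of the 6 epithelial markers reached 100, and PTPRC, CD3E and HBB of the blood cell markers were at the floor. Of 4 neuronal markers 2 were above 100, SNAP25 at 333.1 to 516.9 and TUBB3 at 1078.6 to 1544.8. The other neuronal markers, SYT1 and RBFOX3, were at the floor. The summed mesenchymal markers read 16008 and 15227 in wild type at 8 and 24 h and 15906 and 13258 in T387A. Nearly all of the summed blood cell markers came from CD68, a lysosomal protein also made outside the blood, at 1892 and 2444 in wild type and 2094 and 3023 in T387A (limma, adjusted p = 0.315). The part of these markers in the results was not tested. In bulk RNA, fewer cells with a transcript and less of it per cell cannot be told apart.

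At 8 and 24 h the T387A line had more RNA of many interferon-stimulated genes and of a group of amino acid stress genes. The genes with less RNA in T387A included MAGEA1, VCAN and CCN2 and had few members in any list. Limma, with time as a pairing term and a spread shared among genes of like level, found 167 of 12680 genes past an adjusted p under 0.05. T387A was higher in 92 of them, or 0.726% of the genes tested, and lower in 75, or 0.591%, and with the arrays scaled to a common median the split was 67 higher and 35 lower. All 167 had the same sign at 8 h and at 24 h, which the test itself favours, since it averages both times and counts their gap as spread. On the mean of both times 25 differed at least 2-fold. The 11 lists of interferon-stimulated or interferon signalling genes, with the genes induced at least 2-fold at 4 h over 0 h in both lines, held 164 of the genes tested. They contained 39 of the 92 higher genes and 1 of the 75 lower ones, MMP1. With 1 residual degree of freedom the calls rest mostly on the shared spread: they fell to 0 of 12680 with a prior that did not depend on level (885 at an unadjusted p under 0.05).

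CXCL10, a chemokine that draws activated T cells, showed the largest difference among the genes past the threshold. In wild type it read 120.9 at 8 h and 122.4 at 24 h, and in T387A it read 480.3 and 373.6. Both T387A values stood above both wild-type values, and the mean difference was 1.80 ± 0.14 on the log2 scale (SE), or 3.48-fold (limma, adjusted p = 2.24e-07). Neither line exceeded the floor at 0 h, and at 4 h the levels were 25.9 in wild type and 106.5 in T387A. TRIM22, a ubiquitin ligase that restricts viruses, read 190.2 and 254.6 in wild type against 515.4 and 570.5 in T387A. Its groups did not overlap, and the difference was 1.30 ± 0.11 (limma, adjusted p = 1.48e-06). IFI44L, an interferon-induced gene with antiviral activity, read 73.3 and 135 in wild type and 200 and 396.1 in T387A, with T387A higher at each time by 1.45 and 1.55 on the log2 scale. Its level was higher at 24 h than at 8 h in both lines.

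The promoter windows of CXCL10, IFI44L and OAS3 are shown because they are among the higher genes and hold the core of the interferon-stimulated response element, and that of CTXN1 because it is a lower gene whose window holds none. The windows run from 250 bases before to 50 bases after the gene's start in RefSeq, build GRCh38.p14, and are printed 5′ to 3′ on the gene's strand. Capitals mark the fixed letters of the motif GAAANNGAAA, searched on both strands. CXCL10 lies at chr4:76023448-76023747 on the minus strand, IFI44L at chr1:78620198-78620497 on the plus strand, OAS3 at chr12:112938224-112938523 on the plus strand and CTXN1 at chr19:7926086-7926385 on the minus strand.
CXCL10: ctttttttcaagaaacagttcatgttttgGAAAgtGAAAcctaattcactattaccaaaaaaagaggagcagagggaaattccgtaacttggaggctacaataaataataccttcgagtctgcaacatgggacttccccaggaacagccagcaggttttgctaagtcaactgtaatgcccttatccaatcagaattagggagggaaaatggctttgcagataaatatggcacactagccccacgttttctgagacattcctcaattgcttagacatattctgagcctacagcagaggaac
IFI44L: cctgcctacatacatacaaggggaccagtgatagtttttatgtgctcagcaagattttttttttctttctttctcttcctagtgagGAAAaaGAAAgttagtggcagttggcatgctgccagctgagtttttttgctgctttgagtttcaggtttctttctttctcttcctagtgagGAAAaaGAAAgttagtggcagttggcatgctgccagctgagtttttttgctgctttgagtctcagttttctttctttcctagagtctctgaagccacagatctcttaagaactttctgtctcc
OAS3: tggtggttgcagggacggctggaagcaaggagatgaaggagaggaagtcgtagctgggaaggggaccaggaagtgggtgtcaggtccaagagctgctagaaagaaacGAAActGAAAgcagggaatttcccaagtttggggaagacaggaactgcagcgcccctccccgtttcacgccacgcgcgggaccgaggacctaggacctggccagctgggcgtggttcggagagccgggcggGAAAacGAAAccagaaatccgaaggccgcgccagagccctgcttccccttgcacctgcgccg
CTXN1: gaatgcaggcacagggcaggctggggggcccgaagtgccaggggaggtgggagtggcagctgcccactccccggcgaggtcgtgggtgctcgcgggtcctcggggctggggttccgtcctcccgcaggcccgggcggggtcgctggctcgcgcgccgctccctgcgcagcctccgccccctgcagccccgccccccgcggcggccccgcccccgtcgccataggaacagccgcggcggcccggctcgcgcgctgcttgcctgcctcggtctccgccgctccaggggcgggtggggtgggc
The match in CXCL10 begins 221 bases before the start. IFI44L has a pair of matches, at 164 and 73 bases before the start, inside a stretch of 85 bases that occurs more than once in the window. OAS3 has matches at 143 and 12 bases before the start.

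Across RefSeq, 4.4% of 27305 genes had the motif in a window, and of the genes tested that matched by symbol it was 4.1% of 10085. Among the genes higher in T387A, 25 of the 72 with a window had it, or 34.7%, and among the lower genes 2 of 63, or 3.2%. The 12 genes named for the largest higher differences included 11 with a window, and 10 of these had the motif; of the 13 named lower genes, 8 had a window and 0 had it. Genes induced at 4 h in both lines carried it in 46.0% of 63 windows. Within these, the share was 68.4% of 19 for those past the threshold and higher late, and 36.4% of 44 for those not past it. A match describes the letters in the window and is not a measured binding site.

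Among the lists, the genes of antiviral defence had the most members past the threshold. Of 31 antiviral effectors tested, 16 were past the threshold and higher in T387A, against 0.726% of all genes tested, and 0 were lower. At both times 28 were higher, against 22.3% of all genes tested. Their median difference was 0.52 at 8 h and 0.25 at 24 h on the log2 scale, against 0 over all genes at each time. The list had been higher in T387A by a median of 1.03 at 4 h and 0.19 at 0 h. MX1, a GTPase that blocks viral nucleocapsids, read 379.7 and 440.9 in wild type and 868.3 and 841.8 in T387A. Its groups did not overlap, and it differed by 1.06 ± 0.10 (limma, adjusted p = 2.4e-06). RSAD2, the enzyme viperin, which makes a chain-terminating nucleotide, read 1311 at 8 h and 487.8 at 24 h in wild type and 2125 and 1108 in T387A. It declined with time in both lines, so the groups overlap over the 4 arrays, yet T387A was higher at each time. OAS3, an enzyme whose product switches on RNase L, read 853.4 and 1003 against 1756 and 1676, and its difference of 0.89 ± 0.09 had an adjusted p of 1.02e-05 by limma.

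**Figure D1:**
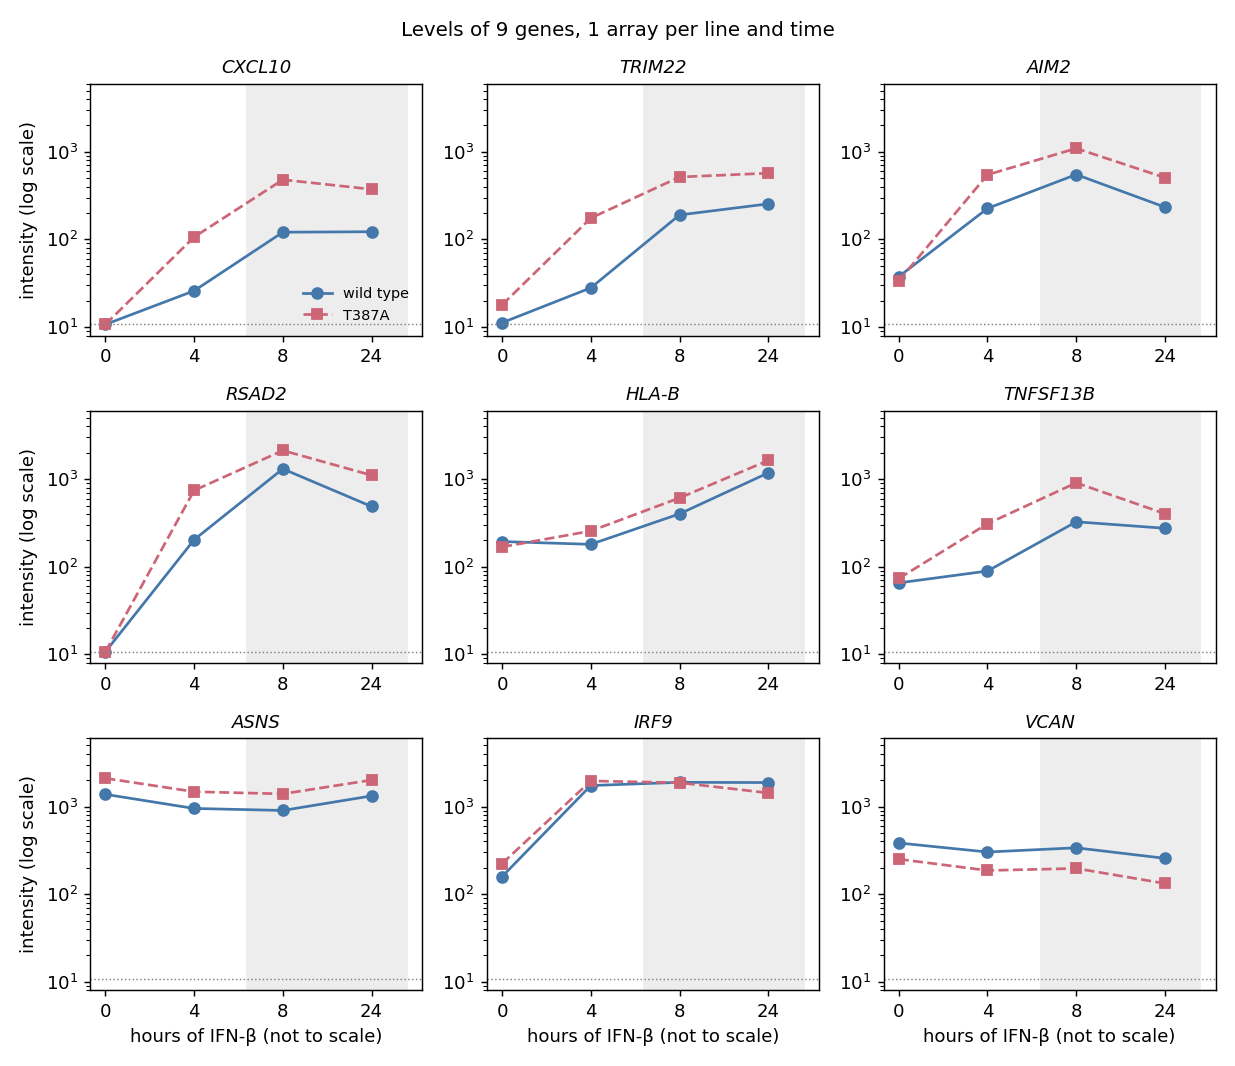
Intensities of 9 genes on a log axis at 0, 4, 8 and 24 h of IFN-β in wild type (blue circles) and T387A (red squares), 1 array per point. Grey shading marks the late arrays and the dotted line the floor of 10.7, to which lower values were raised. T387A lies above wild type at 8 and 24 h for 7 of the genes, below it for VCAN, and the lines meet at 8 h for IRF9.

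Other effectors differed by less. OAS1 read 1533 and 1430 in wild type and 2129 and 1926 in T387A, a difference of 0.45 ± 0.09 (limma, adjusted p = 0.01). IFIT1, which binds viral RNA caps and was among the most abundant members, read 11150 and 10300 in wild type and 14920 and 10880 in T387A. Its difference of 0.42 at 8 h and 0.08 at 24 h did not pass the test (limma, adjusted p = 0.44). IFI27 read 2866 and 9106 against 4188 and 10130 and did not pass either (limma, adjusted p = 0.145). ISG15, the ubiquitin-like protein of the response, reached 16480 and 17990 at 24 h, with differences of 0.27 and 0.13 at 8 and 24 h (limma, adjusted p = 0.588). In the ISG15 conjugation list 1 of 7 genes passed, the deconjugating enzyme USP18, which was also the 1 of 5 feedback inhibitors of interferon signalling to pass. It read 206.1 and 278.9 in wild type and 369.5 and 407.7 in T387A, which do not overlap (limma, adjusted p = 0.0041).

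Among 15 nucleic acid sensing genes 3 passed, all of them higher in T387A, against 0.726% of all genes tested. The list medians were 0.57 at 8 h and 0.21 at 24 h. AIM2, a sensor of cytosolic DNA, read 550.5 at 8 h and 233.6 at 24 h in wild type and 1095 and 506.9 in T387A. Its level fell from 8 to 24 h in both lines while the distance between them stayed at 0.99 and 1.12, and the mean difference was 1.05 ± 0.10 (limma, adjusted p = 2.4e-06). SLC15A3, a lysosomal peptide transporter that serves innate sensing, read 227 and 294.5 in wild type and 460.3 and 480.2 in T387A, with no overlap (limma, adjusted p = 0.000326). DHX58, a helicase of the RIG-I family, read 89.1 and 158.3 against 159.9 and 203.4 and did not pass (limma, adjusted p = 0.108).

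The chemokine and cytokine list had the highest late median of the 26 described, 0.98 over both times. Past the threshold and higher were 5 of 11 genes, against 0.726% of all genes tested, and none were lower. The list's median was 1.27 at 8 h and 0.55 at 24 h. TNFSF10, the death ligand TRAIL, read 105.5 and 53.4 in wild type and 376.6 and 111.9 in T387A, higher at each time, by 1.84 and 1.07 (limma, adjusted p = 0.000486). TNFSF13B, the B cell survival factor BAFF, read 326.2 and 275.1 in wild type and 908.6 and 403.1 in T387A. No T387A value fell among the wild-type ones, but most of the distance was at 8 h, 1.48 against 0.55 at 24 h (limma on both times, adjusted p = 0.00072). CCL5, a chemokine for T cells and monocytes, had its larger difference at 24 h, where it read 189.7 in wild type and 393.7 in T387A, after 82.7 and 112.8 at 8 h (limma on both times, adjusted p = 0.0293). IL18BP, which neutralises interleukin 18, read 15.7 and 11.6 in wild type and 37.9 and 54.9 in T387A, with the wild-type values close to the floor (limma, adjusted p = 0.0135). IL4I1, an amino acid oxidase outside the lists, was also dim, at 22.9 and 12.7 against 65.6 and 40.4 (limma, adjusted p = 0.0193).

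Cell death genes included TNFSF10 again. They were past the threshold in 4 of 8 members, all higher in T387A, against 0.726% of all genes tested. XAF1, an interferon-induced gene that promotes apoptosis, read 228.2 and 411.3 in wild type and 399.5 and 647.9 in T387A (limma, adjusted p = 0.000882). CASP1, the protease of inflammasomes, read 174 and 268.2 against 341.5 and 368.2 (limma, adjusted p = 0.00773). For CASP1 the T387A values both lay above the wild-type ones, whereas for XAF1 the lines overlapped across times, since both increased from 8 to 24 h.

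Class I antigen presentation differed modestly but in many members. T387A was higher at both times in 17 of 19 genes, where 22.3% of all genes were. By limma 6 passed and were higher, against 0.726% of all genes, and the medians were 0.43 at 8 h and 0.29 at 24 h. HLA-B, a class I heavy chain, read 401.9 at 8 h and 1180 at 24 h in wild type and 610.7 and 1635 in T387A, so that both lines gained and T387A stayed ahead by 0.60 and 0.47 (limma, adjusted p = 0.00348). PSMB9, a subunit of the immunoproteasome, read 289.3 and 530.2 in wild type and 546.6 and 730.1 in T387A, with no overlap (limma, adjusted p = 0.00225). HLA-F read 136.9 and 307.6 against 184.3 and 566, with the wider distance at 24 h (limma, adjusted p = 0.0147). B2M, the light chain shared by class I molecules, read 6491 and 11050 against 7855 and 11760 and did not pass (limma, adjusted p = 0.593). HLA genes resemble one another, and a bead probe may read more than 1 of them.

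Of 5 guanylate-binding protein genes, GTPases that act on intracellular microbes, GBP1 and GBP4 passed and were higher in T387A. Over all genes tested, 0.726% passed and were higher. GBP4 read 24.2 and 19.4 in wild type and 111.3 and 48 in T387A, a mean of 3.37-fold (limma, adjusted p = 0.00923). GBP1 was far brighter, at 1210 and 610.7 against 1964 and 694.2, and its difference of 0.70 at 8 h was 0.18 at 24 h (limma on both times, adjusted p = 0.0385). In the list of PARP, DTX3L and TRIM genes 3 of 11 passed, among them PARP14, an ADP-ribosyltransferase, at 737.5 and 769.6 in wild type and 1411 and 852.2 in T387A (limma, adjusted p = 0.0329). Of the complement genes, 1 of 6 passed: C1S, a protease of the classical pathway, read 150.8 and 235 against 289.8 and 384.3, without overlap (limma, adjusted p = 0.00147). The APOBEC3 deaminases and the apolipoprotein L genes had 0 of 6 and 0 of 4 members past the threshold in limma, with 0 and 1 at an unadjusted p under 0.05.

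The signalling components themselves showed no common shift. Of 11 interferon signal transduction genes, 5 were higher and 5 lower at both times, and the median late difference was 0.04. IRF1, an interferon-induced transcription factor, passed the test at 580.1 and 381.7 in wild type and 798.8 and 487.8 in T387A, a difference of 0.41 ± 0.10 (limma, adjusted p = 0.0399). T387A was also higher in IRF1 by 0.39 at 0 h and 1.10 at 4 h. IRF9, the DNA-binding partner of STAT2, read 1889 and 1878 in wild type and 1869 and 1429 in T387A. The lines were level at 8 h, with a difference of -0.02, and T387A was lower by 0.39 at 24 h without passing the test (limma, adjusted p = 0.435). The receptor chains were dim, IFNAR1 at 41.7 to 74.6 and IFNAR2 at 48.1 to 72.9 over the 4 arrays. The feedback inhibitor SOCS1 read 58.2 and 70.9 against 75.1 and 62.4 (limma, adjusted p = 0.946).

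**Figure D2:**
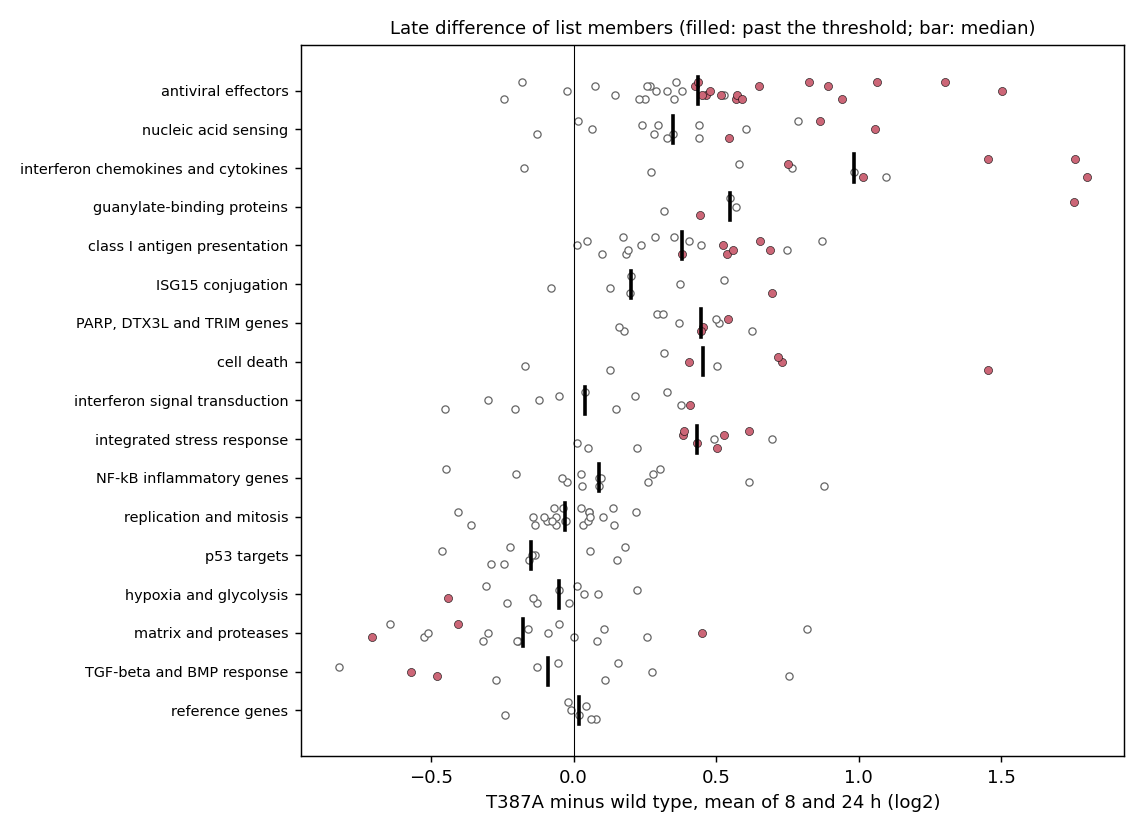
Mean of the 8 h and 24 h differences, T387A minus wild type on the log2 scale, for the tested members of 17 gene lists. Filled red points passed the limma threshold, open points did not, and the black bar is the list's median. Filled points of the interferon lists are all right of 0, those of the TGF-beta list and the hypoxia list are left of it, and the matrix list has both.

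In several interferon lists the lines stood nearer to each other at 24 h than at 8 h, taking the size of the difference whatever its sign. This held for 27 of 31 antiviral effectors, 10 of 11 PARP, DTX3L and TRIM genes, 12 of 15 nucleic acid sensing genes and 69 of the 92 genes induced at 4 h in both lines, against 42.6% of all 12680 genes. It held for 6 of 11 interferon signal transduction genes, 3 of 6 APOBEC3 genes and 2 of 4 apolipoprotein L genes. The 92 induced genes had median differences of 0.79, 0.45 and 0.15 at 4, 8 and 24 h. Past the late threshold, 26 of them were higher and 1 was lower. Of these 92 genes, 68 had a smaller difference in size at 8 h than at 4 h, against 46.7% of all genes. The induced genes were chosen on the 0 and 4 h arrays. Class I antigen presentation had medians of 0.46, 0.43 and 0.29 at the 3 treated times. A difference between times in a single line has no replicate, so these values are given as counts. When the late difference was set against the difference at 4 h in a fit of all 8 arrays, limma called 0 genes. At an unadjusted p under 0.05 there were 610 of 12680, a share smaller than 0.05.

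**Figure D3:**
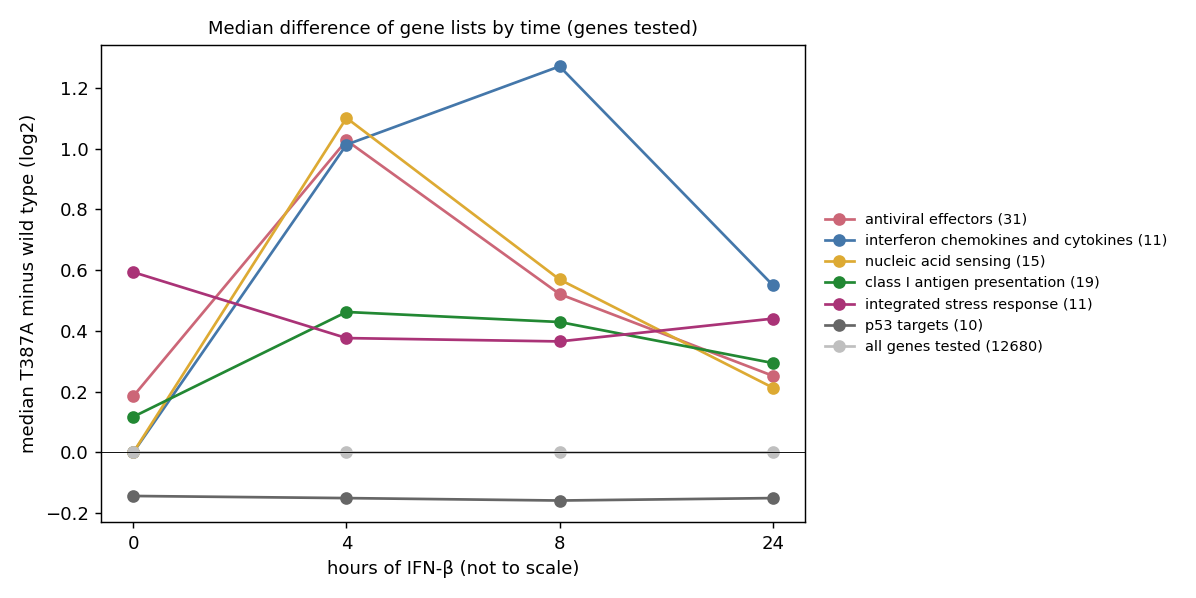
Median of T387A minus wild type on the log2 scale at 0, 4, 8 and 24 h for 6 gene lists and for all genes tested, with the number of genes tested in brackets. The antiviral and nucleic acid sensing lists are highest at 4 h, the chemokine and cytokine list is highest at 8 h, and the integrated stress response list is highest at 0 h. The p53 targets stay between -0.14 and -0.16.

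Genes of the integrated stress response, which ATF4 switches on when amino acids are short or protein folding fails, formed a second group. Of 11 tested, 6 passed and were higher in T387A, against 0.726% of all genes tested, and 0 were lower. The median late difference was 0.43. It was 0.59 at 0 h and 0.38 at 4 h, so the distance was there without interferon. ASNS, which makes asparagine, read 901.9 and 1322 in wild type and 1395 and 2006 in T387A. Its late differences were 0.63 and 0.60, and those without interferon and after 4 h were 0.61 and 0.64 (limma on the late arrays, adjusted p = 0.000608). ATF4 itself read 5541 and 5748 against 7137 and 8946 (limma, adjusted p = 0.0183), and DDIT4, an inhibitor of mTOR signalling, read 406.1 and 477.6 against 569.2 and 708.1 (limma, adjusted p = 0.00773). For both genes the T387A values lay above both wild-type values. The pseudokinase gene TRIB3 and the serine synthesis genes PSAT1 and PHGDH were the other members past the threshold, with differences of 0.43, 0.38 and 0.39.

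The 75 genes lower in T387A had few members in the lists. Of the lists outside the interferon response, matrix and proteases had 2 of 18 members past the threshold and lower with 1 higher. The TGF-beta and BMP response had 2 of 10 lower, and hypoxia and glycolysis had 1 of 11 lower. Over all genes tested, 0.591% passed and were lower and 0.726% passed and were higher. CCN2 and CCN1, matricellular proteins that respond to TGF-beta and to YAP, read 1438 and 1500 against 1016 and 963.3, and 2365 and 2623 against 1862 and 1718 (limma, adjusted p = 0.00147 and 0.0101). In both genes wild type was above T387A on all late arrays. MMP1, an interstitial collagenase, read 273.4 and 156.7 in wild type and 152.8 and 105.4 in T387A (limma, adjusted p = 0.0287). TIMP1, an inhibitor of such proteases, was lower by 0.40 at 8 h and 0.41 at 24 h, although T387A had been higher by 0.30 at 0 h. PLAUR, the urokinase receptor, was the matrix list member that was higher, at 740.3 and 834.2 in wild type and 1100.0 and 1046 in T387A. BNIP3, a mitophagy receptor induced by hypoxia, read 1876 and 1684 against 1242 and 1385 (limma, adjusted p = 0.02).

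MAGEA1, a cancer-testis antigen, had the largest difference downward among the genes past the threshold, at 107.5 and 89.8 in wild type and 36 and 23.2 in T387A, 3.4-fold lower (limma, adjusted p = 0.00277). The distance was present from the start, at -1.71 on the log2 scale at 0 h and -1.65 at 4 h. A dimmer MAGEA1 probe had a smaller late difference, -0.51 at 8 h and -0.48 at 24 h. MAGEA12, a paralog on the array, was not lower: it read 259.7 and 233.4 in wild type and 356.3 and 285.9 in T387A, without passing the test (limma, adjusted p = 0.176). VCAN, the matrix proteoglycan versican, read 338 and 256.3 in wild type and 196.5 and 132.4 in T387A, and was lower at 0 and 4 h as well, by 0.61 and 0.70 (limma on the late arrays, adjusted p = 0.00147). CTXN1, a small membrane protein known from cortical neurons, read 389.6 and 400.7 against 226.5 and 195.2, with no overlap (limma, adjusted p = 0.000326). Its lines were apart at 0 and 4 h too, by -0.83 and -0.41. FES, a tyrosine kinase, read 168.9 and 203.8 against 92.1 and 114.1, also apart at 0 h, by -0.84 (limma on the late arrays, adjusted p = 0.0128).

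For PDE5A, the cyclic GMP phosphodiesterase, the lines were level at 0 h, at 277.4 and 278. They were apart at 8 h, at 218 in wild type and 104.7 in T387A, with 299.6 and 191.4 at 24 h (limma on the late arrays, adjusted p = 0.00488). The late difference departed from that at 0 h by -0.855, with 1 array per line at 0 h, and this contrast did not pass limma's test. The phospholipase gene PLA2G3 and NXN, a thioredoxin-like regulator of Wnt signalling, were lower by 0.76 ± 0.18 and 0.79 ± 0.16 (limma, adjusted p = 0.0372 and 0.0128). The other named lower genes, MST1, CD79B, RBPMS2 and GPER1, did not exceed 90.2 on any late array, where the spread is wide. GPER1 has 2 other probes: one differed by -1.01 and -0.90, and the other, dim at 15.1 to 39.5, by 0.0 at 8 h and 1.39 at 24 h. Of 44 genes named that passed the test, 16 had another probe above the floor on all 4 arrays. By the sign of the mean difference, GPER1 was the 1 with an opposing probe. Size was not compared in that count. The other probe of PSMB9 showed almost no difference, 0.11 at 8 h and 0.01 at 24 h, and that of MAGEA1 differed by less than the probe used.

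The genes past the threshold were also set beside the earlier arrays. Of the 92 higher genes, 57 (62.0%) were also higher at 0 h, where 48.0% of all genes tested were, and 82 at 4 h, where 44.9% were. Their median differences at these times were 0.13 and 0.49. Of the 75 lower genes, 63 (84.0%) were also lower at 0 h, against 39.1% of all genes, and 68 at 4 h, against 42.0%, with medians of -0.25 and -0.29. The shares of all genes count those at the floor in both lines as neither higher nor lower. They also hold more dim genes: no late array reached 100 in 6528 of 12680, against 16 of the 167. The sign was the same at all 4 times in 51 of the 92 and 59 of the 75. Against the 0 h difference itself the late difference passed limma's test in 7 genes, or 0.0552% of those tested, and in 0 genes with the floor doubled or with a prior not trended on level.

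A 2-fold difference with the same sign at both times was met by 14 genes higher in T387A, 0.11% of those tested, and by 15 genes lower, 0.118%. Only 7 of these 29 had a late array at 100 or more: CXCL10, TRIM22, TNFSF10, IFI44L and GBP4 were higher, and MAGEA1 and TMEM205 were lower. TMEM205, a membrane protein, read 64.9 and 100 in wild type and 30.2 and 46.3 in T387A, and the test over both times was missed (limma, adjusted p = 0.0588). At 8 h 230 genes differed at least 2-fold, 1.81% of those tested, and at 24 h 583 did, 4.6%. No late array reached 100 for 209 and 565 of these, so most lay where the spread of a difference at 1 time is wide: its SD was 0.50 on the log2 scale under a level of 50, against 0.20 between 100 and 1000. No gene with a late array at 100 was 2-fold apart in opposite directions, and 14 dim genes were.

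**Figure D4:**
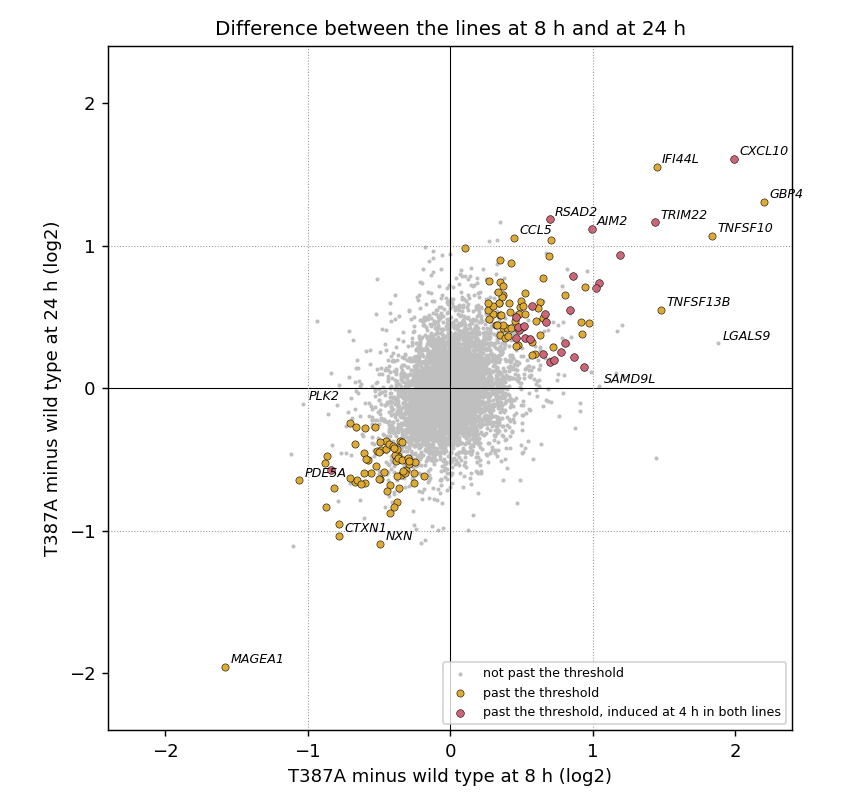
Difference between the lines at 8 h (horizontal) and at 24 h (vertical), in log2 of T387A over wild type, for the 6152 genes whose highest late array was at 100 or more. Red points passed the late test and had been induced at 4 h in both lines, yellow points passed it without that, and grey points did not pass; dotted lines mark 2-fold. CXCL10, GBP4, IFI44L, TNFSF10 and TRIM22 lie in the upper right beyond 2-fold at both times and MAGEA1 in the lower left.

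At 8 h only, which here means under 1.5-fold or of the other sign at 24 h, 8 genes with a late array at 100 were at least 2-fold higher in T387A and 2 were lower. SAMD9L, an antiviral protein that limits translation, read 319.5 in wild type and 657.8 in T387A at 8 h, and 196.6 and 198.3 at 24 h, where the lines met. LGALS9, the lectin galectin-9, read 26.3 and 96.5 at 8 h and 100.3 and 124.8 at 24 h, where wild type read nearer to T387A. TMEM140, DDX60L and TNFSF13B followed the same order, with differences at 8 h of 1.21, 1.17 and 1.48 and at 24 h of 0.08, 0.40 and 0.55. POU3F2, a neural transcription factor, read 48.1 and 130.8 at 8 h and 15.3 and 10.9 at 24 h. NUPR1, a stress-induced chromatin protein, read 46.1 and 106.2 at 8 h and 95.7 and 130.3 at 24 h, and CCDC144NL was the remaining gene. On other probes TNFSF13B and NUPR1 were not limited to 8 h. These differed by 1.70 and 1.16 at 8 h and by 0.87 and 0.94 at 24 h. The other POU3F2 probe differed by 1.89 at 8 h and -0.26 at 24 h. The label of 8 h only compares the late times and leaves out the earlier arrays. At 4 h SAMD9L, TMEM140, DDX60L, TNFSF13B and POU3F2 differed by 1.44, 1.48, 2.73, 1.79 and 1.785, each more than at 8 h. LGALS9, NUPR1 and CCDC144NL differed by 0.58, -0.09 and -0.35 at 4 h. SAMD9L was also higher in T387A at 0 h, by 1.03. The lower genes were PLK2, a kinase of the cell cycle, at 168.3 and 82.4 and then 199.4 and 184.5, and DMBT1, a secreted scavenger receptor, at 52.1 and 24 and then 106 and 76.9.

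At 24 h only, 4 genes with a late array at 100 were higher and 3 lower. CCL5 was among the higher ones, with the levels given above. C1RL, a complement-like protease, read 88.4 and 106.8 at 8 h and 59.9 and 122.4 at 24 h, and TRMT1L, an RNA methyltransferase, read 99.3 and 124.5 and then 76 and 156. The ribosomal RNA probe RNA28SN5 was the other higher gene, at 117.8 and 150.1 and then 47.9 and 107.6. The other probe of TRMT1L read 40.9 and 35.6 at 8 h and 19.1 and 42.4 at 24 h. That of RNA28SN5 differed by 0.11 at 8 h and 0.55 at 24 h, under 2-fold. NXN, CYB5D2 and PIGV, of which PIGV adds mannose to membrane anchors, were the lower genes, at 291.9 against 136.9, 155.8 against 73.3 and 152.1 against 72.7 at 24 h. At 0 and 4 h NXN had differed by -0.44 and -0.59, PIGV by -0.47 and -0.75 and CYB5D2 by -0.14 and 0.09. Of these 7 genes CCL5 and NXN passed the test over both times.

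Across the 5133 genes at 100 or more on all 8 arrays, the difference at 8 h and that at 24 h, which share no array, correlated at r = 0.33 over genes and had the same sign in 60.4%. Across the 6528 tested genes with no late array at 100, the correlation was 0.07 and the sign was shared by 52.1%. Genes are not independent replicates, and these values describe the 4 arrays.

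In 7 other lists limma called no member. Over all genes tested the median late difference was -0.01, 11.1% had an unadjusted p under 0.05 and 25.7% were lower at both times. Replication and mitosis had a median of -0.03 with 2 of 23 genes at an unadjusted p under 0.05, and heat shock had -0.03 with 0 of 11. Sterol synthesis stood at 0.02 with 1 of 12 at that level, NF-kB inflammatory genes at 0.09 with 2 of 14, and immediate early genes at -0.02 with 3 of 11. The p53 targets had a median of -0.15, with 7 of 10 lower at both times and 3 at an unadjusted p under 0.05. CDKN1A, the cell cycle inhibitor of the p53 list, read 2683 and 2962 in wild type and 2245 and 2528 in T387A (limma, adjusted p = 0.262). Of the 7 reference genes 1 had an unadjusted p under 0.05, and GAPDH read 13040 and 13480 against 13440 and 13440 (limma, adjusted p = 0.974). In 2 further lists a single gene passed. Among 4 metallothionein genes tested, whose copies are nearly alike, MT1G was higher in T387A, at 96.2 and 122 against 150.7 and 208.1 (limma, adjusted p = 0.041). Of 15 cancer-testis genes MAGEA1 was the 1 that passed.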

How the data were processed

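The authors deposited 1 table of linear probe intensity for 47315 probes on the 8 arrays, and GenomeStudio is the tool named in the submitters' processing notes, with its version and settings not given in the sources used here. In the deposited values 28.6% lay at or below 0, with a lowest of -19.9, so background had been subtracted, and 78.6% of ranks were identical on all arrays, so the arrays had been set to a common distribution. No further normalization was applied. Symbols came from the platform's probe table: 30111 probes named 1 gene, 8 several and 17196 none, and only the first were used. The probe with the highest mean over the 8 arrays stood for each of 6691 genes with several probes.

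Intensities under 10.7, the larger of the median (6.1) and the size of percentile 1 (-10.7), were raised to it and log2 was taken from the deposited intensities. Genes above the floor on at least 1 late array were tested with limma 3.58.1 in R 4.3.3 (lmFit, eBayes with a prior trended on mean level, Benjamini-Hochberg adjustment) as time plus line on the 4 late arrays. The prior had 19.6 degrees of freedom against 1 residual. Contrasts with 0 h and 4 h used all 8 arrays, whose 0 h and 4 h arms hold 1 array each and were assumed to vary like the late ones. Single times have no test and are given by 2-fold counts. Shares over all genes tested count a gene without a difference, as at the floor in both lines, as neither higher nor lower. The pairing comes from the shared time and is the design's own. The labels name no culture, chip or scan, so p-values measure the spread between these arrays, which may be technical; precision is limited by the number of arrays. The fits were tested on simulated data in which spread was set by level alone. That test cannot say whether the trended prior suits these arrays.

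Named genes were the 12 largest differences each way past the threshold and above the floor on all late arrays, genes 2-fold apart at both times or at 1 time with an array at 100 or more, 4 members of each list, and a set of single genes. TIMP1, PLAUR, TRIB3, PSAT1, PHGDH and the genes of the contrast with 0 h were named after their values were seen. The comparison, the gene lists and the tests were chosen with earlier results of these data known. Promoter windows are from RefSeq, GRCh38.p14.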

Additional observations from a re-analysis of the deposited data

Results flagged for a closer look

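In 7 genes the difference between the lines over 8 and 24 h departed from the difference at 0 h by limma's contrast on all 8 arrays. They were named after their values were seen. AIM2 had a late minus 0 h difference of 1.22 (adjusted p = 0.032), since the untreated lines read 37.6 in wild type and 33.6 in T387A. OASL had -1.19 (adjusted p = 0.0195): the untreated lines read 11.4 and 46.0, the first close to the floor, and the late difference of 0.83 was smaller than the 2.01 at 0 h. DUSP19, a dual-specificity phosphatase, had 0.96 (adjusted p = 0.0277), with T387A lower at 0 h, at 549 against 752.7, and higher late.

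PTMA, which encodes prothymosin alpha and has many near-identical copies in the genome, had 1.44 (adjusted p = 0.0195), with 815.7 in wild type and 438.1 in T387A at 0 h and late differences of 0.11 at 8 h and 0.99 at 24 h. SEMA3E, a secreted guidance factor, had 1.17 (adjusted p = 0.0195), and the zinc finger genes ZNF14 and ZNF682 had 1.03 (adjusted p = 0.0242) and 1.07 (adjusted p = 0.0219). In these last 4 genes T387A was lower at 0 h and at 4 h and higher at both late times. The late difference of ZNF682 on its own did not pass (limma, adjusted p = 0.079). The contrast rests on 1 untreated array per line, and whether that pair of arrays decides it was not tested.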

How the results depend on the processing

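The count of 167 genes in the late difference depended on how spread was shared and on dim genes. It was 56 with the floor doubled, 88 with a floor at 100 and 293 with no floor and an offset of 16. It was 99 with a trended and robust prior, 102 (67 higher, 35 lower) with arrays scaled to a common median, which moved medians by at most 0.016, 234 with all 4 late arrays above the floor and 173 (109 higher, 64 lower) after cyclic loess. It was 0 with a prior not trended on level, with the mean of a gene's probes, with genes above the floor on any of the 8 arrays, which adds 976 genes without spread on the late arrays, and without the pairing by time (no replicate block), and it was 0 and 1 in fits of all 8 arrays with 2 line differences and with 1. Leaving out each late array in turn gave 0 to 0. These fits used all remaining arrays with 2 line differences, since 3 late arrays leave no residual, and that model called 0 genes with every array in, so they say nothing about single arrays. Beside these zeros, 467 to 1977 genes had an unadjusted p under 0.05. For the 28 genes named for size or set singly that passed, 470 recomputed results were run, of which 169 kept the call, 301 lost it and 0 reversed, and 6 genes were not tested with a floor at 100.

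The 7 genes of the contrast with 0 h became 0 with the floor doubled, any of 8 arrays above the floor, the mean of probes, the common median, the prior not trended and the robust prior, 1 with a floor at 100, 27 after cyclic loess, 30 with all late arrays above the floor and 44 with no floor. The 0 genes of the contrast with 4 h became 1 with a floor at 100 and 5 with no floor or with all late arrays above the floor. The 29 genes at least 2-fold apart at both times became 11 with the floor doubled, 3 with a floor at 100 or with no floor, 225 at 1.5-fold and 1 at 3-fold. Except where stated the cause was not tested. List medians of 27 lists stayed within the spread in 144 recomputed values and moved in 18, and 4 had another sign.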
